A study of Mus musculus with 20 samples.

Results

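The SLC25 family is the set of carrier proteins that move metabolites, nucleotides, cofactors and metal ions across the inner mitochondrial membrane. Its members were taken from the gene table as every protein-coding gene whose symbol is Slc25a followed by a number, leaving out Slc25a13, Slc25a15 and Slc25a20. This gave 44 genes of the 38924 in the table, of which 22572 are protein coding. The rule itself uses no expression value. Each carrier is built from repeated membrane-spanning stretches around a central binding site that opens in turn to the cytosol and to the matrix, and most carriers exchange one substrate for another. In hepatocytes such exchanges feed and drain the citric acid cycle, gluconeogenesis, the urea cycle, fatty acid synthesis and oxidation, and the supply of ATP to the cytosol. Many substrates have a pair of related carriers with different tissue patterns, such as the ADP/ATP carriers Slc25a4 (ANT1, the form of heart and muscle) and Slc25a5 (ANT2).

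RNA was sequenced from livers of male C57/BL6 mice (C57BL/6J in the study's methods), either wild type (WT) or labelled as knockouts of thrombospondin-1 (TSP-1, gene Thbs1), which were bought at 5 weeks of age and acclimated for 1 week. Mice of both genotypes then received for 12 weeks either a control diet or CDAHFD. CDAHFD is a high-fat diet without choline, with limited methionine and with defined amino acids, and is used to model steatohepatitis with fibrosis. Each of the 4 groups held 5 livers, with 1 library per liver. Both genotypes were bought as lines and were not described as littermates, so genotype and line of origin cannot be told apart. Libraries are named by diet (ND for control, HF for CDAHFD), genotype (WT, or KO for the null label) and replicate number, and values of a group are listed in replicate order.

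The 20 libraries held 15641545 to 23276322 fragments assigned to genes. Expression is given as FPKM, the fragments of a gene scaled by its length and by the assigned fragments of the library. The hepatocyte markers Alb, Apoa1, Ttr, Cps1, Hnf4a and Serpina1e summed to 24905 to 47537 FPKM in the 20 livers, with medians of 37769 and 44791 FPKM in WT and null livers on the control diet and 32699 and 40287 FPKM on CDAHFD. Thbs1 went against the genotype label on the control diet, with 0.058 to 0.326 FPKM in the WT livers and 0.986 to 1.90 FPKM in those labelled TSP-1 null. On CDAHFD it was at 3.46 to 6.10 FPKM in WT and 3.05 to 4.40 FPKM in the libraries labelled null, so every genotype comparison here rests on labels that this gene does not bear out, and "null" means the label. The small RNA gene Gm23935 took 1.08% of the fragments of HFWT 5, more than in the other libraries it led. Without that library 11 carriers were called higher and 6 lower with diet in WT, and the counts in the other comparisons did not change. The gene coordinates match the mouse build GRCm38 (99.8% of 37607 shared gene IDs overlap the GENCODE M21 annotation), although the submitters' notes name GRCh38.

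Promoter sequences were read from RefSeq on GRCm38.p6 for the 33 of 44 carriers that matched by symbol, as 42 windows from 250 bases before to 50 after a transcript start. Carrier promoters had a median of 15 CpG dinucleotides and 59.0% G and C, against 7 CpG and 52.7% over all 32851 promoters. The palindrome TGACGTCA, known as the cAMP response element, was found in 2 carrier windows (4.76%), of Slc25a25 and Slc25a36, and in 1.79% of all promoters. The E-box CACGTG was found in 6 carrier windows (14.3%) and in 7.15% of all promoters. The 6 windows belong to 5 carriers (Slc25a1, Slc25a14, Slc25a31, Slc25a33 and Slc25a36), since 2 overlapping windows of Slc25a14 hold the same site. The 4 windows below are shown because they hold these letters in carriers that changed in opposite directions with diet, or belong to the most abundant carrier. Slc25a36 and Slc25a33 carry pyrimidine nucleotides, Slc25a25 exchanges ATP-Mg for phosphate, and Slc25a47 is a liver-enriched carrier. Capitals mark a TGACGTCA or CACGTG match, both strands were searched (each palindrome reads the same on both), and the sites do not overlap.
Slc25a36 (chr9:97110992-97111291, minus strand): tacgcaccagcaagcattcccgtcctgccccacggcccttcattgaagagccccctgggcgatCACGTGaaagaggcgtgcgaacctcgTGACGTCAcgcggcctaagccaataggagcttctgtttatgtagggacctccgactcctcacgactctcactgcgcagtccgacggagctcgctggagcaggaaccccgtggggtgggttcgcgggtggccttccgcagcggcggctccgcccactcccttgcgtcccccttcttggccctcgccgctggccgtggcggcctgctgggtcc
Slc25a33 (chr4:149774218-149774517, minus strand): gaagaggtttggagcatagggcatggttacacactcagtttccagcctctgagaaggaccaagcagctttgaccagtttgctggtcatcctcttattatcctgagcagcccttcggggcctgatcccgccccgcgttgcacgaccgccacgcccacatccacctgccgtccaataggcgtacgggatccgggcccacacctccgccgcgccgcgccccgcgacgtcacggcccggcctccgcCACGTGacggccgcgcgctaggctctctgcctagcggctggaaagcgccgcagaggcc
Slc25a25 (chr2:32424017-32424316, minus strand): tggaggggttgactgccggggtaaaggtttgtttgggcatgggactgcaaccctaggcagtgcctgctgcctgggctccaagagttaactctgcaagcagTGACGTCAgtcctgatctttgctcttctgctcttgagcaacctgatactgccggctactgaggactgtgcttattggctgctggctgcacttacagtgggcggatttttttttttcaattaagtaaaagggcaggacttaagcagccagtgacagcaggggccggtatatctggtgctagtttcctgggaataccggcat
Slc25a47 (chr12:108850879-108851178, plus strand): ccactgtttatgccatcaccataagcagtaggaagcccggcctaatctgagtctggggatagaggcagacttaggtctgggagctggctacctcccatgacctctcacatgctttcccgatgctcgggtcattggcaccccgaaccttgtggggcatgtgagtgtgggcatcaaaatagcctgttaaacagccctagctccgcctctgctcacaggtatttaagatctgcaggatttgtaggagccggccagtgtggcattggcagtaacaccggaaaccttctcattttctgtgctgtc
The Slc25a25 window is the most downstream of 3 listed starts, and the other two hold no match. The TATA box TATAAA was found in 2 carrier windows (4.76%), of Slc25a18 and Slc25a21, and in 13.6% of all promoters. The NRF1 motif, GCGCA and GCGC with 1 base of any kind between them, was found in 2 carrier windows (4.76%), of Slc25a3 and Slc25a31, and in 4.60% of all. The estrogen-related receptor motif TCAAGGTCA (0.423% of all) and a direct repeat of AGGTCA with a spacer of 1 base (0.0396% of all) matched no carrier window. A match is a run of letters and was not tested as a binding site.

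Of the 44 carriers, 38 were above 0.5 FPKM in at least 5 libraries and were tested, and 31 were above it in all 20. Levels spanned more than 3 orders of magnitude. The most abundant carrier was Slc25a47, with means of 636 ± 149 FPKM in WT and 763 ± 176 FPKM in null livers on the control diet and 330.4 ± 44.4 and 471 ± 52.6 FPKM on CDAHFD (SD, n = 5 each). It was followed in every group by Slc25a5 (mean over all libraries 229 FPKM) and the glutathione importer Slc25a39 (175 FPKM). The next places differed between groups, with Slc25a10 and Slc25a30 in WT and Slc25a22 and Slc25a10 in null livers on the control diet, and Slc25a1 with Slc25a10 in WT and with Slc25a22 in null livers on CDAHFD. Over all libraries the glutamate carrier Slc25a22 averaged 84.7 FPKM and the dicarboxylate carrier Slc25a10 83.2 FPKM, with overlapping ranges. The 44 carriers summed to 1721 ± 183 FPKM in WT and 1852 ± 239 in null livers on the control diet, and to 1325 ± 56.9 and 1522 ± 104 FPKM on CDAHFD. Slc25a47 alone made up 36.9% and 41.2% of that sum on the control diet and 24.9% and 31% on CDAHFD, in WT and null livers in turn.

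**Figure D1:**
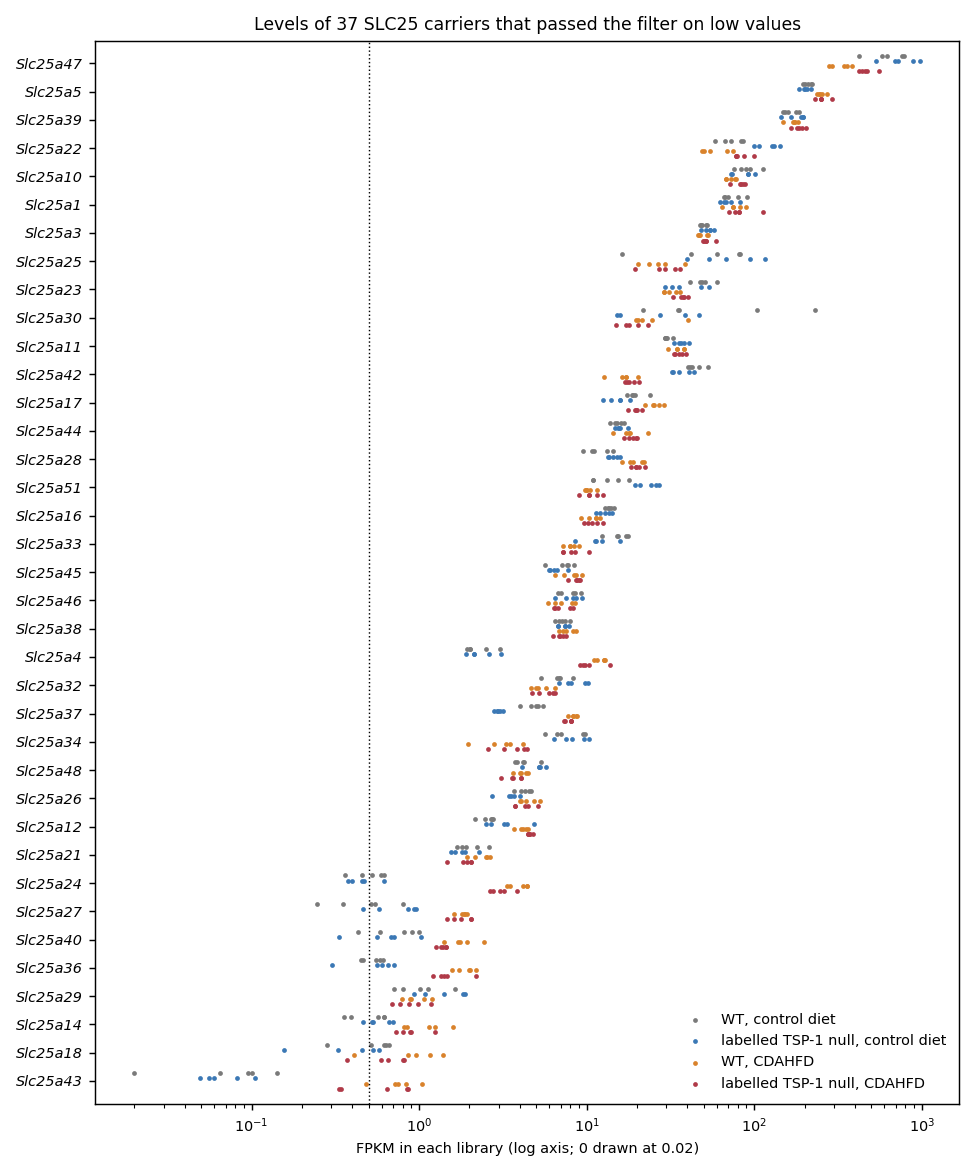
FPKM (x axis, log scale) of 37 of the 38 tested carriers (y axis, ordered by mean level) in each of the 20 libraries, with 1 point per library coloured by group and values of 0 drawn at 0.02. The dotted line is the 0.5 FPKM threshold. Slc25a47, Slc25a5 and Slc25a39 lead in every group. CDAHFD points lie to the right of every control diet point for Slc25a4, Slc25a5, Slc25a14, Slc25a27, Slc25a28, Slc25a36, Slc25a37 and Slc25a40. The same holds for Slc25a24 and Slc25a43, which passed the filter only through the CDAHFD livers, so that their separation was bound to appear.

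The remaining 6 carriers were not tested. Slc25a2, an ornithine carrier, was at most 0.351 FPKM, and Slc25a31, the ADP/ATP carrier of the testis, at most 0.247 FPKM. Slc25a41 and Slc25a54 had at most 1 fragment in any library. Slc25a35 was at 0.047 to 0.238 FPKM in the 10 control diet livers and at 0.234 to 0.607 FPKM in the 10 CDAHFD livers, from 4 to 40 fragments. Slc25a53 was at 0.088 to 0.291 FPKM on the control diet and 0.209 to 0.397 FPKM on CDAHFD. For both genes the diets overlapped in null livers but not in WT livers. In WT, Slc25a35 was at 0.047 to 0.204 FPKM on the control diet and 0.393 to 0.607 FPKM on CDAHFD. Slc25a53 was at 0.088 to 0.201 and 0.260 to 0.397 FPKM in WT.

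The comparison of CDAHFD with the control diet asks how the liver's set of mitochondrial carriers differs in a model of steatohepatitis. In WT livers, 10 of the 38 tested carriers were higher on CDAHFD and 7 were lower, on log2(FPKM + 0.1), where a call needed an FDR under 0.05 (limma, Benjamini-Hochberg over all tested genes) and an absolute log2 fold change (log2FC) above 0.58. Over all 14524 tested genes 44.1% were called higher and 4.62% lower, so the carriers had a smaller share of higher calls and a larger share of lower calls than the background. In null livers 7 carriers were higher and 6 lower, against 41.9% and 4.00% of all genes. These shares are the background for every FPKM diet count of a carrier group, gene list or marker list below. The median log2FC of the 38 carriers was 0.09 in WT and 0.04 in null livers, and that of all genes was 0.53 and 0.50. Slc25a24 and Slc25a43 passed the filter on low values only through the CDAHFD livers, where they are high, so their diet differences were bound to appear and are given as descriptions without a p-value. Without these 2 carriers 8 of 36 were called higher in WT and 5 of 36 in null livers, an alternative chosen after seeing the data, against 37.9% and 35.9% of the 12117 genes that passed through the control diet livers, and the median log2FC was 0.07 and -0.00205. Called in both genotypes were the higher Slc25a4, Slc25a24, Slc25a27, Slc25a36, Slc25a37, Slc25a40 and Slc25a43 and the lower Slc25a25, Slc25a34, Slc25a42 and Slc25a47. The groups did not overlap for 17 carriers in WT and 18 in null livers, Slc25a24 and Slc25a43 included, against 56.2% and 57.8% of all genes. In bulk liver, fewer cells of a type and less RNA per cell cannot be told apart.

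Since the median gene moved by 0.53 and 0.50 in log2 FPKM, each change was also measured after median-of-ratios scaling, which sets the typical gene of every library equal. On that scale 6 carriers were higher and 13 lower in WT livers (23.1% and 14.8% of all genes), and 6 were higher and 13 lower in null livers (22.6% and 13.2%). These shares are the background for the median-of-ratios diet counts below. Without Slc25a24 and Slc25a43, which passed the filter only through CDAHFD, 4 of 36 carriers were higher in each genotype on that scale. The median carrier was then at -0.44 in WT and -0.46 in null livers, against 0.01 and 0.00 for all genes. The sign turned on that scale for 11 of the 21 carriers not called in WT and 11 of the 25 not called in null livers, and for no called carrier. Called carriers could hardly turn, since this scaling lowered the diet log2FC by less than the fold threshold that a call needs. Their unturned signs are therefore no test of the calls. In both genotypes 11 carriers were lower on that scale, namely Slc25a16, Slc25a22, Slc25a23, Slc25a25, Slc25a32, Slc25a33, Slc25a34, Slc25a42, Slc25a46, Slc25a47 and Slc25a51. Direction and call held in both genotypes for FPKM, median of ratios and quantile normalization alike for 5 carriers, the higher Slc25a4 and Slc25a24 and the lower Slc25a25, Slc25a34 and Slc25a42. Slc25a24 passed the filter only through CDAHFD, so its place among them is a description too. With quantile normalization 5 carriers were higher and 15 lower in WT (17.3% and 17.6% of all genes), and 3 were higher and 12 lower in null livers (16.7% and 15.1%). Without Slc25a24 and Slc25a43, 3 of 36 were then higher in WT and 2 of 36 in null livers. With no fold threshold 15 were higher and 12 lower in WT (64.4% and 8.73% of all genes), and 16 were higher and 11 lower in null livers (64.0% and 7.69%).

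**Figure D2:**
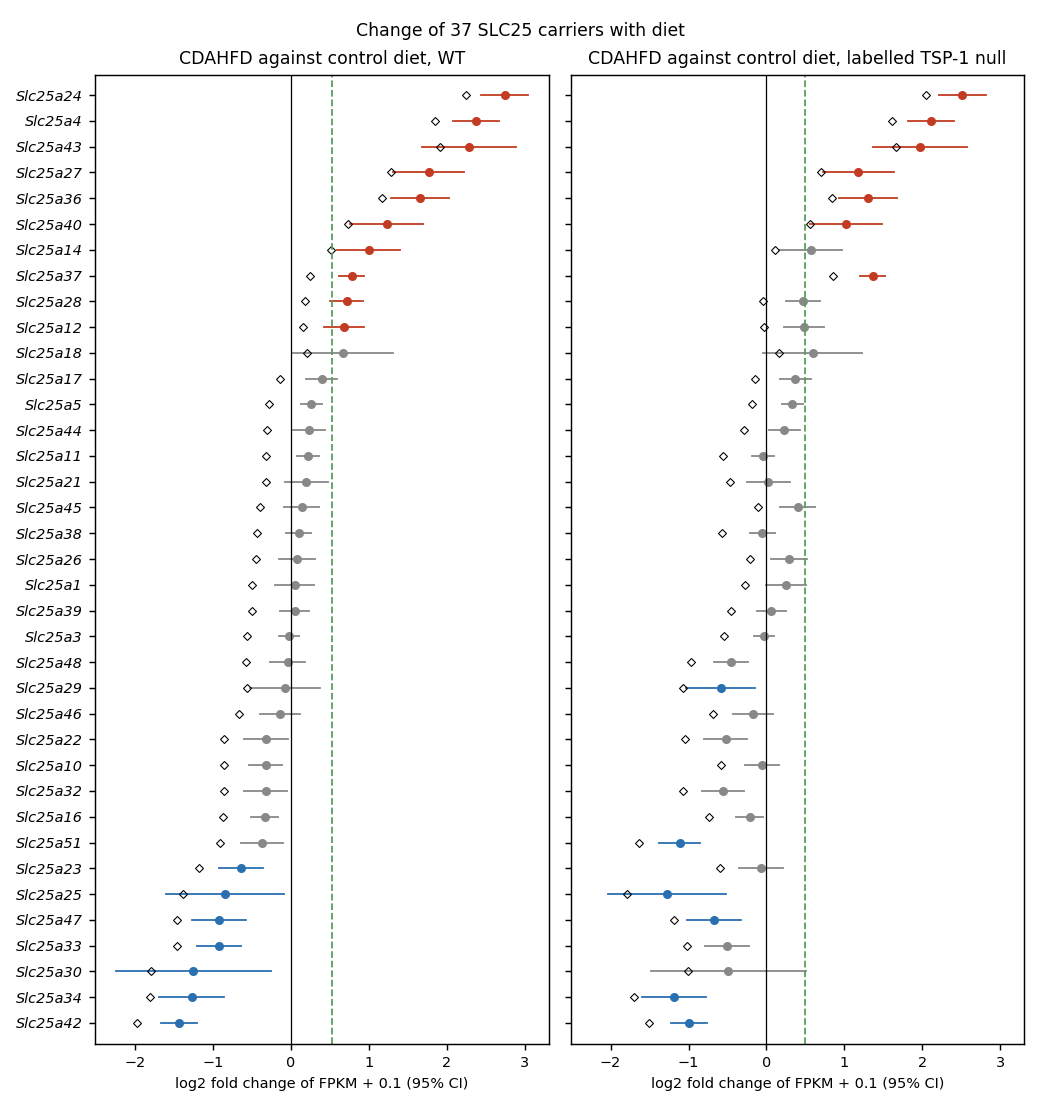
log2 fold change of FPKM + 0.1 with its 95% confidence interval (x axis) for 37 of the 38 tested carriers (y axis) with CDAHFD in WT (left) and in livers labelled TSP-1 null (right), n = 5 per group. Red and blue mark carriers called higher and lower and grey those not called, open diamonds give the value after median-of-ratios scaling and the green dashed line the median of all genes (0.53 and 0.50). Slc25a24 and Slc25a43 passed the filter only through the CDAHFD livers. Most grey points lie to the left of the green line. This was nearly bound to appear, since that line lies just under the fold threshold for a higher call.

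Among the phosphate and adenine nucleotide carriers, which supply the matrix with phosphate and ADP and export ATP, 2 of 6 tested were called higher on CDAHFD in both genotypes, Slc25a4 and the Slc25a24 that passed the filter only through CDAHFD, and 2 fell in WT and 1 fell in null livers. Slc25a4 (chr8:46206797-46211284), the ADP/ATP carrier of heart and muscle, stood at 1.94, 3.06, 2.51, 2.01 and 2.00 FPKM in WT and 3.07, 1.91, 2.11, 2.61 and 2.12 FPKM in null livers on the control diet. On CDAHFD it stood at 12.8, 12.8, 11.1, 11.5 and 12.8 FPKM in WT and 9.16, 9.48, 10.3, 9.85 and 13.8 FPKM in null livers. Every CDAHFD liver was above every control diet liver. The log2FC of Slc25a4 was 2.38 ± 0.14 (SE, FDR 2.30e-11) in WT and 2.11 ± 0.14 (SE, FDR 1.47e-10) in null livers, and 1.84 and 1.60 after median-of-ratios scaling. The muscle markers Ckm, Myh7, Myl2, Tnnt2 and Actn2 summed to 0.036 to 0.357 FPKM on the control diet and 0.389 to 1.31 FPKM on CDAHFD, with Ckm, Myh7 and Myl2 at 0 in all 10 control diet livers. Most of that sum was Tnnt2, the only marker of the list that was tested, at 0.036 to 0.357 and 0.362 to 1.23 FPKM. On CDAHFD Ckm was at most 0.111, Myl2 0.057, Actn2 0.03 and Myh7 0.018 FPKM.

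The more abundant ADP/ATP carrier Slc25a5 (chrX:36795651-36798807) was at 219.8, 209, 222, 201 and 197 FPKM in WT and 200.2, 207, 186, 217 and 199 FPKM in null livers on the control diet. With CDAHFD it was at 239, 255, 273, 245 and 246 FPKM in WT and 249.8, 251, 249.8, 292 and 229.5 FPKM in null livers. Its CDAHFD values were above the control diet values in both genotypes, but the difference was under the fold threshold, with log2FC 0.26 ± 0.06 (SE, FDR 0.00120) and 0.33 ± 0.06 (SE, FDR 1.41e-04), and its sign turned after median-of-ratios scaling (-0.28 and -0.19). Of the 31-base stretches of Slc25a5 transcripts, 49.4% also occur in 13 other genes, among them Gm5560, so its level is uncertain. Within a library, the log2 ratio of Slc25a5 to Slc25a4 went from 6.47 ± 0.26 to 4.36 ± 0.16 in WT and from 6.38 ± 0.26 to 4.59 ± 0.32 in null livers (SD, n = 5). These differences, CDAHFD less control diet, of -2.11 and -1.78 each had an exact permutation p of 0.00794, the smallest that 5 against 5 livers allow, and an adjusted p of 0.0227 over the 40 ratio tests.

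The ATP-Mg/phosphate carriers are calcium-regulated and set the matrix pool of adenine nucleotides. Slc25a24 (chr3:109123149-109168457) was low without CDAHFD, at 0.363, 0.524, 0.589, 0.459 and 0.614 FPKM in WT and 0.466, 0.398, 0.374, 0.456 and 0.620 FPKM in null livers on the control diet. It reached 4.44, 4.41, 3.49, 3.33 and 4.15 FPKM in WT and 2.64, 3.06, 3.21, 2.77 and 3.87 FPKM in null livers on CDAHFD. No control diet liver came near the CDAHFD range, and the log2FC was 2.74 ± 0.14 (SE) in WT and 2.51 ± 0.14 (SE) in null livers (2.25 and 2.05 after median-of-ratios scaling). Its relative Slc25a23 (chr17:57043711-57059863) was far more abundant, at 51.1, 60.1, 49.1, 41.7 and 47.5 FPKM in WT and 35.7, 48.3, 29.5, 32.5 and 53.7 FPKM in null livers on the control diet. The corresponding values on CDAHFD were 29.2, 29.0, 34.2, 36.2 and 31.2 FPKM in WT and 40.4, 37.5, 32.6, 38 and 36.5 FPKM in null livers. Slc25a23 fell in WT livers (log2FC -0.64 ± 0.14, SE, FDR 3.22e-04), where the groups did not overlap, and was not called in null livers (-0.07 ± 0.14, SE, FDR 0.638), where they did. Without NDWT 2 the log2FC in WT was -0.57 and no longer past the fold threshold. The log2 ratio of Slc25a24 to Slc25a23 went from -6.36 ± 0.31 to -2.98 ± 0.33 in WT and from -6.13 ± 0.29 to -3.54 ± 0.29 in null livers, differences of 3.38 and 2.59. These are descriptions too, since Slc25a24 entered only through CDAHFD. Crb3 overlaps Slc25a23 on the opposite strand at a mean of 8.17 FPKM, and it is not stated whether counting used strand.

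Slc25a25 (chr2:32414487-32451445), the third ATP-Mg/phosphate carrier tested, varied widely between livers, at 81.6, 59.8, 82.0, 42.1 and 16.2 FPKM in WT and 67.9, 53.7, 94.1, 117 and 39.6 FPKM in null livers on the control diet. CDAHFD livers held a narrower range, at 29.5, 20.2, 23.5, 38.8 and 26.8 FPKM in WT and 29.2, 36.2, 33.9, 19.6 and 27.1 FPKM in null livers. It fell with log2FC -0.84 ± 0.36 (SE, FDR 0.0430) in WT, where the groups overlapped, and -1.27 ± 0.36 (SE, FDR 0.00397) in null livers, where they did not. The WT call was lost on leaving out any of 7 single libraries (HFWT 1, 2, 3 or 5 or NDWT 1, 2 or 3), with log2FC between -1.24 and -0.66. Its promoter window with TGACGTCA is printed above, as is that of Slc25a36, which rose. The ratio of Slc25a25 to Slc25a23 passed in no comparison. The phosphate carrier Slc25a3, which feeds ATP synthase, was at 46.3 to 59.0 FPKM in all 20 livers with a log2FC of -0.02 ± 0.06 (SE, FDR 0.790) in WT and -0.03 ± 0.06 (SE, FDR 0.701) in null livers.

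Cofactor, pyrimidine nucleotide and metal carriers were the largest group, with 13 tested. In WT livers 4 rose (Slc25a28, Slc25a36, Slc25a37, Slc25a40) and 2 fell (Slc25a33, Slc25a42), and in null livers 3 rose (Slc25a36, Slc25a37, Slc25a40) and 2 fell (Slc25a42, Slc25a51). After median-of-ratios scaling 2 were higher and 5 lower in either genotype. Slc25a42 (chr8:70184340-70212305), which exchanges coenzyme A for adenine nucleotides, was at 53.0, 42.6, 41.7, 47.1 and 40.5 FPKM in WT and 35.4, 40.6, 43.8, 32.6 and 32.7 FPKM in null livers on the control diet. On CDAHFD the values were 16.2, 17.1, 20.3, 17.1 and 12.7 FPKM in WT and 17.1, 17.3, 18, 19.3 and 20.7 FPKM in null livers. Every CDAHFD liver was below every control diet liver. The log2FC of Slc25a42 was -1.43 ± 0.11 (SE, FDR 1.00e-09) in WT and -0.99 ± 0.11 (SE, FDR 1.69e-07) in null livers (-1.97 and -1.51 after median-of-ratios scaling). Slc25a16, also linked to coenzyme A, was not called, with log2FC -0.34 ± 0.08 (SE, FDR 0.00107) and -0.22 ± 0.08 (SE, FDR 0.0228), and the log2 ratio of Slc25a16 to Slc25a42 was higher by 1.10 in WT and 0.78 in null livers on CDAHFD (exact permutation p = 0.00794 each, adjusted 0.0227). Pank1, a pantothenate kinase that opens coenzyme A synthesis, had a log2FC of -1.29 ± 0.10 (SE, FDR 6.39e-10) in WT and -0.92 ± 0.10 (SE, FDR 7.76e-08) in null livers.

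The pyrimidine nucleotide carriers Slc25a33 and Slc25a36, which serve mitochondrial DNA and RNA synthesis, had log2FC of opposite sign. Slc25a33 (chr4:149744036-149774277) was at 15.4, 17.8, 12.3, 17.1 and 15.3 FPKM in WT and 11.3, 12.3, 15.8, 11.3 and 8.52 FPKM in null livers on the control diet. With CDAHFD the levels were 7.92, 7.99, 9.04, 7.20 and 8.37 FPKM in WT and 7.20, 7.18, 8.10, 8.47 and 10.3 FPKM in null livers. It fell in WT livers with no overlap between diets (log2FC -0.93 ± 0.14, SE, FDR 4.87e-06) and was under the fold threshold in null livers (-0.50 ± 0.14, SE, FDR 0.00262). Slc25a36 (chr9:97075597-97111157) was at 0.556, 0.450, 0.587, 0.463 and 0.612 FPKM in WT and 0.649, 0.304, 0.559, 0.709 and 0.604 FPKM in null livers on the control diet. Its CDAHFD values were 1.72, 2.20, 2.00, 1.57 and 2.00 FPKM in WT and 1.35, 1.48, 1.42, 1.21 and 2.18 FPKM in null livers. All CDAHFD livers were above all control diet livers, with log2FC 1.66 ± 0.18 (SE, FDR 9.33e-08) in WT and 1.30 ± 0.18 (SE, FDR 2.45e-06) in null livers, and with quantile normalization the null value was 0.38 and not called. The log2 ratio of Slc25a33 to Slc25a36 differed by -2.58 in WT and -1.80 in null livers between CDAHFD and the control diet (exact permutation p = 0.00794, adjusted 0.0227). Both printed promoter windows hold CACGTG.

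Slc25a37 (mitoferrin 1, chr14:69241848-69285112) and Slc25a28 (mitoferrin 2) bring iron into mitochondria for heme and iron-sulfur clusters, mitoferrin 1 chiefly in erythroid cells. Slc25a37 was at 4.64, 4.99, 5.51, 3.99 and 5.15 FPKM in WT and 2.78, 3.04, 2.97, 3.17 and 2.92 FPKM in null livers on the control diet. On CDAHFD it was at 8.82, 8.28, 7.78, 8.63 and 8.29 FPKM in WT and 8.05, 7.42, 7.30, 8.10 and 8.12 FPKM in null livers. The control diet groups were separate from each other, and both were below all CDAHFD livers. It rose with diet by 0.78 ± 0.07 (SE, FDR 1.90e-08) in WT and 1.36 ± 0.07 (SE, FDR 1.44e-11) in null livers, but by 0.24 (not called) and 0.85 after median-of-ratios scaling, and by 0.20 (not called) in WT with quantile normalization. Slc25a28 was at 9.50 to 15.8 FPKM on the control diet and 16.2 to 22.4 FPKM on CDAHFD, with log2FC 0.72 ± 0.10 (SE, FDR 3.42e-06) in WT and 0.47 ± 0.10 (SE, FDR 3.89e-04) in null livers, and after median-of-ratios scaling it was called in neither (0.18 and -0.05). With quantile normalization the WT value was 0.33 and not called. The log2 ratio of Slc25a37 to Slc25a28 was 0.89 higher on CDAHFD in null livers (exact permutation p = 0.00794, adjusted 0.0227) and 0.06 higher in WT (exact permutation p = 0.714). Of the 3 erythroid markers tested, Hbb-bs was at 48.2 to 147 FPKM on the control diet and 35.5 to 87.5 FPKM on CDAHFD. Hba-a1 was at 40.9 to 143 and 39.4 to 87.6 FPKM, and Alas2 at 18.1 to 31.3 and 13.7 to 19.9 FPKM. None of these rose, 1 fell in WT and 2 fell in null livers. Their part in the Slc25a37 result was not tested.

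Slc25a39 and Slc25a40 import glutathione, the main thiol antioxidant of the matrix. Slc25a39 (chr11:102402985-102407946) was at 185, 177, 149.8, 159.8 and 154 FPKM in WT and 197, 190.3, 195, 166 and 144 FPKM in null livers on the control diet. CDAHFD values were 176, 183, 171, 173 and 149 FPKM in WT and 166, 179, 193, 204 and 185 FPKM in null livers. The diets overlapped, with log2FC 0.05 ± 0.09 (SE, FDR 0.637) in WT and 0.06 ± 0.09 (SE, FDR 0.542) in null livers. Slc25a40 was at 0.333 to 1.03 FPKM on the control diet and 1.27 to 2.46 FPKM on CDAHFD, with log2FC 1.23 ± 0.22 (SE, FDR 5.74e-05) and 1.02 ± 0.22 (SE, FDR 4.01e-04), neither of which was called with quantile normalization (0.24 and 0.10). After median-of-ratios scaling the WT value was called (0.73) and the null value was not (0.55). The log2 ratio of Slc25a39 to Slc25a40 differed by -1.18 between diets in WT livers (exact permutation p = 0.00794, adjusted 0.0227). Of 7 tested genes of glutathione synthesis and reduction, 3 were higher with diet in each genotype, near the 44.1% and 41.9% of all genes in WT and null livers. After median-of-ratios scaling 1 was higher in each, against 23.1% and 22.6% of all genes. The glutathione synthetase Gss had log2FC 1.37 ± 0.09 (SE, FDR 8.62e-11) in WT and 1.32 ± 0.09 (SE, FDR 1.80e-10) in null livers.

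Slc25a51 (chr4:45395923-45408766), the mitochondrial NAD carrier, was at 17.8, 11.0, 13.3, 15.3 and 10.9 FPKM in WT and 26.1, 19.5, 26.9, 24.1 and 20.9 FPKM in null livers on the control diet. On CDAHFD its values were 10.1, 10.5, 9.91, 11.5 and 9.84 FPKM in WT and 10.3, 11.6, 10.4, 9.03 and 12.6 FPKM in null livers. It fell in null livers, where the diets did not overlap (log2FC -1.11 ± 0.13, SE, FDR 2.12e-07), and was under the fold threshold in WT (-0.37 ± 0.13, SE, FDR 0.0129). The remaining cofactor carriers were not called with diet on FPKM. The S-adenosylmethionine carrier Slc25a26 had log2FC 0.08 ± 0.11 (SE, FDR 0.504) in WT and 0.29 ± 0.11 (SE, FDR 0.0231) in null livers, with the opposite-strand neighbour Lrig1 overlapping it. The folate and FAD carrier Slc25a32 had -0.33 ± 0.13 (SE, FDR 0.0299) and -0.56 ± 0.13 (SE, FDR 7.57e-04), and the peroxisomal Slc25a17 had 0.39 ± 0.10 (SE, FDR 0.00119) and 0.37 ± 0.10 (SE, FDR 0.00203). Of 12 tested genes of cofactor synthesis, 2 were higher and 2 lower in each genotype. After median-of-ratios scaling none was higher and 5 were lower in each, against 14.8% and 13.2% of all genes lower in WT and null livers. Mat1a, the liver enzyme that makes S-adenosylmethionine, had log2FC -1.23 ± 0.15 (SE, FDR 5.05e-07) in WT and -1.70 ± 0.15 (SE, FDR 7.58e-09) in null livers.

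Carriers of amino acids and choline had 7 tested members, with 1 higher and none lower in WT and none higher and 1 lower in null livers. Slc25a22 (chr7:141429739-141437892), the main glutamate carrier of these livers, was at 83.7, 67.1, 73.1, 85.6 and 58.3 FPKM in WT and 143, 107, 132, 127 and 99.8 FPKM in null livers on the control diet. Under CDAHFD the values were 54.3, 74.6, 50.1, 68.8 and 48.7 FPKM in WT and 77.7, 77.6, 99.3, 79.3 and 87.1 FPKM in null livers. Its diet log2FC was -0.32 ± 0.13 (SE, FDR 0.0386) in WT and -0.53 ± 0.13 (SE, FDR 0.00163) in null livers, both under the fold threshold and both past it after median-of-ratios scaling (-0.86 and -1.05). The paralogue Slc25a18 was at 0.156 to 1.40 FPKM, from 4 to 33 fragments, with log2FC 0.67 ± 0.30 (SE, FDR 0.0550) and 0.59 ± 0.30 (SE, FDR 0.0884). Slc25a12, the aspartate/glutamate carrier of excitable tissues, was at 2.15 to 4.85 FPKM on the control diet and 3.69 to 4.76 FPKM on CDAHFD. It was called in WT (log2FC 0.68 ± 0.13, SE, FDR 7.18e-05) and not in null livers (0.48 ± 0.13, SE, FDR 0.00198), and its WT value was 0.15 after median-of-ratios scaling and -0.06 with quantile normalization, not called in either. The basic amino acid carrier Slc25a29 was called lower in null livers (-0.59 ± 0.21, SE, FDR 0.0185), where the groups overlapped, and was at -0.08 ± 0.21 (SE, FDR 0.750) in WT. The call in null livers was lost without HFKO 1, HFKO 2, NDKO 1 or NDKO 3 (log2FC -0.72 to -0.48).

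Slc25a48, which carries choline, the nutrient left out of CDAHFD, was at 3.75 to 5.73 FPKM on the control diet and 3.07 to 4.48 FPKM on CDAHFD. Its log2FC was -0.04 ± 0.11 (SE, FDR 0.720) in WT and -0.46 ± 0.11 (SE, FDR 7.06e-04) in null livers, where the groups did not overlap, and -0.57 and -0.97 after median-of-ratios scaling. Of 10 tested genes of mitochondrial choline, sarcosine and glycine use, none was higher, and 3 were lower in WT and 5 in null livers (8 and 5 after median-of-ratios scaling). Sardh, which oxidises sarcosine, had log2FC -0.60 ± 0.07 (SE, FDR 3.24e-07) in WT and -0.72 ± 0.07 (SE, FDR 3.36e-08) in null livers. The glycine carrier Slc25a38 had 0.10 ± 0.08 (SE, FDR 0.233) and -0.05 ± 0.08 (SE, FDR 0.526), and the branched-chain amino acid carrier Slc25a44 had 0.23 ± 0.10 (SE, FDR 0.0351) and 0.23 ± 0.10 (SE, FDR 0.0388).

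None of the 4 tricarboxylate and dicarboxylate carriers was called with diet on FPKM, and after median-of-ratios scaling 1, Slc25a10, was lower in WT. The citrate carrier Slc25a1, which exports citrate for fatty acid synthesis, was at 62.8 to 90.7 FPKM on the control diet and 64.1 to 113 FPKM on CDAHFD. Its log2FC was 0.05 ± 0.12 (SE, FDR 0.724) in WT and 0.25 ± 0.12 (SE, FDR 0.0705) in null livers. The dicarboxylate carrier Slc25a10 (chr11:120491840-120499187) was at 113, 94.4, 84.1, 76.0 and 89.2 FPKM in WT and 91.9, 101, 92.1, 74.1 and 72.8 FPKM in null livers on the control diet. On CDAHFD Slc25a10 stood at 67.8, 77.0, 77.6, 72.4 and 67.5 FPKM in WT and 72.0, 83.2, 82.5, 88.4 and 86.3 FPKM in null livers. The diets overlapped in both genotypes, with log2FC -0.32 ± 0.10 (SE, FDR 0.00828) and -0.06 ± 0.10 (SE, FDR 0.615). The oxoglutarate carrier Slc25a11 of the malate-aspartate shuttle had 0.22 ± 0.07 (SE, FDR 0.00853) and -0.04 ± 0.07 (SE, FDR 0.595), and Rnf167 overlaps it on the opposite strand. The log2 ratio of Slc25a10 to Slc25a11 differed by -0.54 between diets in WT livers (exact permutation p = 0.00794, adjusted 0.0227) and by -0.02 in null livers (exact permutation p = 0.929). Slc25a21, the oxoadipate carrier, had 0.20 ± 0.13 (SE, FDR 0.181) and 0.02 ± 0.13 (SE, FDR 0.883). Of the 9 genes of citrate and malate use, 3 were higher and 1 lower in WT and 5 higher and 1 lower in null livers. After median-of-ratios scaling 1 was higher and 4 lower in WT, and 2 were higher and 3 lower in null livers. The mitochondrial isocitrate dehydrogenase Idh2 had log2FC 1.37 ± 0.06 (SE, FDR 8.68e-13) in WT and 1.16 ± 0.06 (SE, FDR 8.41e-12) in null livers, and the malic enzyme Me1 had -2.10 ± 0.20 (SE, FDR 1.69e-08) in WT and -1.20 ± 0.20 (SE, FDR 2.40e-05) in null livers.

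Of the 8 other carriers tested, 3 were called higher and 3 lower in WT and 2 higher and 2 lower in null livers, with Slc25a43 among the higher in both. Slc25a47 (chr12:108851129-108856814), the liver-enriched carrier, was at 788, 422, 624, 765 and 579 FPKM in WT and 891, 720.5, 979.9, 693 and 532 FPKM in null livers on the control diet. On CDAHFD the livers held 289.9, 343, 279, 382 and 358 FPKM in WT and 425, 470.4, 443, 560.3 and 459 FPKM in null livers. In WT every CDAHFD liver was below every control diet liver, and in null livers the highest CDAHFD value passed the lowest control value. The log2FC was -0.92 ± 0.17 (SE, FDR 5.76e-05) in WT and -0.67 ± 0.17 (SE, FDR 0.00132) in null livers, and with quantile normalization the null value was -0.31 and not called. The null call also went without NDKO 3 (log2FC -0.57).

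Slc25a34 (chr4:141618824-141623821) was at 9.53, 5.61, 7.05, 9.73 and 6.65 FPKM in WT and 8.20, 9.69, 10.3, 6.37 and 7.52 FPKM in null livers on the control diet. The CDAHFD range was lower, at 1.96, 4.17, 3.31, 2.80 and 3.51 FPKM in WT and 2.58, 4.38, 3.85, 3.22 and 4.22 FPKM in null livers. The diets did not overlap in either genotype, with log2FC -1.27 ± 0.20 (SE, FDR 9.72e-06) in WT and -1.19 ± 0.20 (SE, FDR 2.41e-05) in null livers. Slc25a30 (chr14:75761999-75787037), a relative of the uncoupling proteins, was the most variable carrier, at 104, 230.3, 35.0, 35.5 and 21.6 FPKM in WT and 15.8, 27.6, 47.1, 38.5 and 15.1 FPKM in null livers on the control diet. CDAHFD livers held 19.6, 40.1, 20.2, 24.5 and 21.5 FPKM in WT and 18, 20.2, 14.9, 17.2 and 23.3 FPKM in null livers. It was called lower in WT (log2FC -1.25 ± 0.48, SE, FDR 0.0239) with overlapping groups, and the call was lost without NDWT 1 or NDWT 2 (log2FC between -1.60 and -0.75 over the 20 omissions). In null livers it had -0.49 ± 0.48 (SE, FDR 0.365).

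Slc25a14 (chrX:48623413-48662294), a further relative of the uncoupling proteins, was at 0.618, 0.355, 0.618, 0.394 and 0.572 FPKM in WT and 0.533, 0.465, 0.701, 0.662 and 0.523 FPKM in null livers on the control diet. It was at 0.849, 1.59, 1.25, 1.15 and 0.808 FPKM in WT and 0.881, 0.730, 0.894, 1.24 and 0.799 FPKM in null livers on CDAHFD. It was called higher in WT (log2FC 1.00 ± 0.19, SE, FDR 1.18e-04) and under the fold threshold in null livers (0.57 ± 0.19, SE, FDR 0.0125), with no overlap between diets in either, but after median-of-ratios scaling the WT value was 0.52 and not called, and its sign turned with quantile normalization (-0.08 and -0.41). The log2 ratio of Slc25a30 to Slc25a14 differed by -2.25 between diets in WT livers (exact permutation p = 0.00794, adjusted 0.0227). Slc25a27 (chr17:43641900-43667015), which is also called uncoupling protein 4, was at 0.352, 0.245, 0.544, 0.520 and 0.802 FPKM in WT and 0.938, 0.573, 0.856, 0.955 and 0.460 FPKM in null livers on the control diet. Its levels on CDAHFD were 1.85, 1.88, 1.61, 1.94 and 1.81 FPKM in WT and 1.62, 1.48, 1.78, 2.05 and 2.05 FPKM in null livers. Diets did not overlap, with log2FC 1.77 ± 0.22 (SE, FDR 5.26e-07) in WT and 1.18 ± 0.22 (SE, FDR 7.28e-05) in null livers, the latter 0.29 and not called with quantile normalization.

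Slc25a43 (chrX:36743659-36777202) was the weakest carrier tested, with 0 to 32 fragments per library. It was at 0, 0.101, 0.0950, 0.0650 and 0.141 FPKM in WT and 0.0820, 0.0490, 0.06, 0.105 and 0.0560 FPKM in null livers on the control diet. On CDAHFD it came to 0.720, 0.835, 0.748, 0.479 and 1.04 FPKM in WT and 0.331, 0.647, 0.843, 0.341 and 0.855 FPKM in null livers. It passed the filter only through the CDAHFD groups, where it is high. The log2FC on log2(FPKM + 0.1) was 2.29 ± 0.29 (SE) in WT and 1.97 ± 0.29 (SE) in null livers. With quantile normalization it was 0.95 in WT and 0.50 in null livers, where it was not called. Slc25a45 and Slc25a46 were not called, with log2FC 0.14 ± 0.11 (SE, FDR 0.243) and 0.40 ± 0.11 (SE, FDR 0.00259) for the former and -0.14 ± 0.12 (SE, FDR 0.314) and -0.17 ± 0.12 (SE, FDR 0.218) for the latter, in WT and null livers in turn.

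Markers of several liver cell types, though not of all, moved with diet. Of the 6 hepatocyte markers none rose, 1 fell in WT and 2 fell in null livers with diet, and 1 was higher in null livers on the control diet. All 7 stellate cell and myofibroblast markers rose in both genotypes, from a sum of 11.3 to 16.7 FPKM on the control diet to 99.6 to 245 FPKM on CDAHFD. Of the cholangiocyte markers 5 of 5 tested rose (12.4 to 18 FPKM against 182 to 488 FPKM), and of the macrophage markers 4 of 5 rose and 1 fell (77.8 to 127 FPKM against 261 to 513 FPKM). All 6 T and B cell, 3 of 3 tested neutrophil and 4 of 4 dividing cell markers rose in both genotypes. Of the 6 endothelial markers 1 rose in WT and 2 rose in null livers (44.9 to 59.4 FPKM against 49.3 to 82.7 FPKM). Over all genes 44.1% were called higher with diet in WT and 41.9% in null livers. On the control diet 1 stellate cell and myofibroblast marker was also lower in null livers than in WT, and 1 macrophage marker was higher. Over all genes 3.03% were lower and 1.74% higher in that comparison. The part of these cells in the values of weak carriers such as Slc25a24, Slc25a4 and Slc25a43, and that of hepatocytes in the fall of Slc25a47 and Slc25a42, was not tested.

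The comparison of livers labelled TSP-1 null with WT asks what changes with loss of the protein, within the limit that Thbs1 itself sets. On the control diet 2 carriers were higher in null livers (1.74% of all genes) and 1 was lower (3.03%). These were Slc25a51, Slc25a22 and, lower, Slc25a37, and the same 3 carriers were called after median-of-ratios scaling (4.66% of all genes in either direction). With quantile normalization 2 were called (3.32% of all genes), Slc25a37 being at -0.57 and just under the fold threshold. On CDAHFD none of the 38 carriers was called (0.496% of all genes in either direction), with 5 at an unadjusted limma p under 0.05 and 1 call, Slc25a22, after median-of-ratios scaling (0.427% of all genes). With quantile normalization 2 were called on CDAHFD, Slc25a22 and Slc25a47 (0.716% of all genes). The FPKM shares given here are also the background for the genotype counts of gene lists and markers. At shares this low, a short list without a call says little. The median log2FC of the carriers was 0.02 on the control diet and 0.01 on CDAHFD, against -0.07 and -0.10 for all genes. Groups did not overlap for 4 carriers on the control diet (Slc25a11, Slc25a22, Slc25a37 and Slc25a51) and for 3 on CDAHFD (Slc25a17, Slc25a22 and Slc25a47), against 9.03% and 4.98% of all genes.

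**Figure D3:**
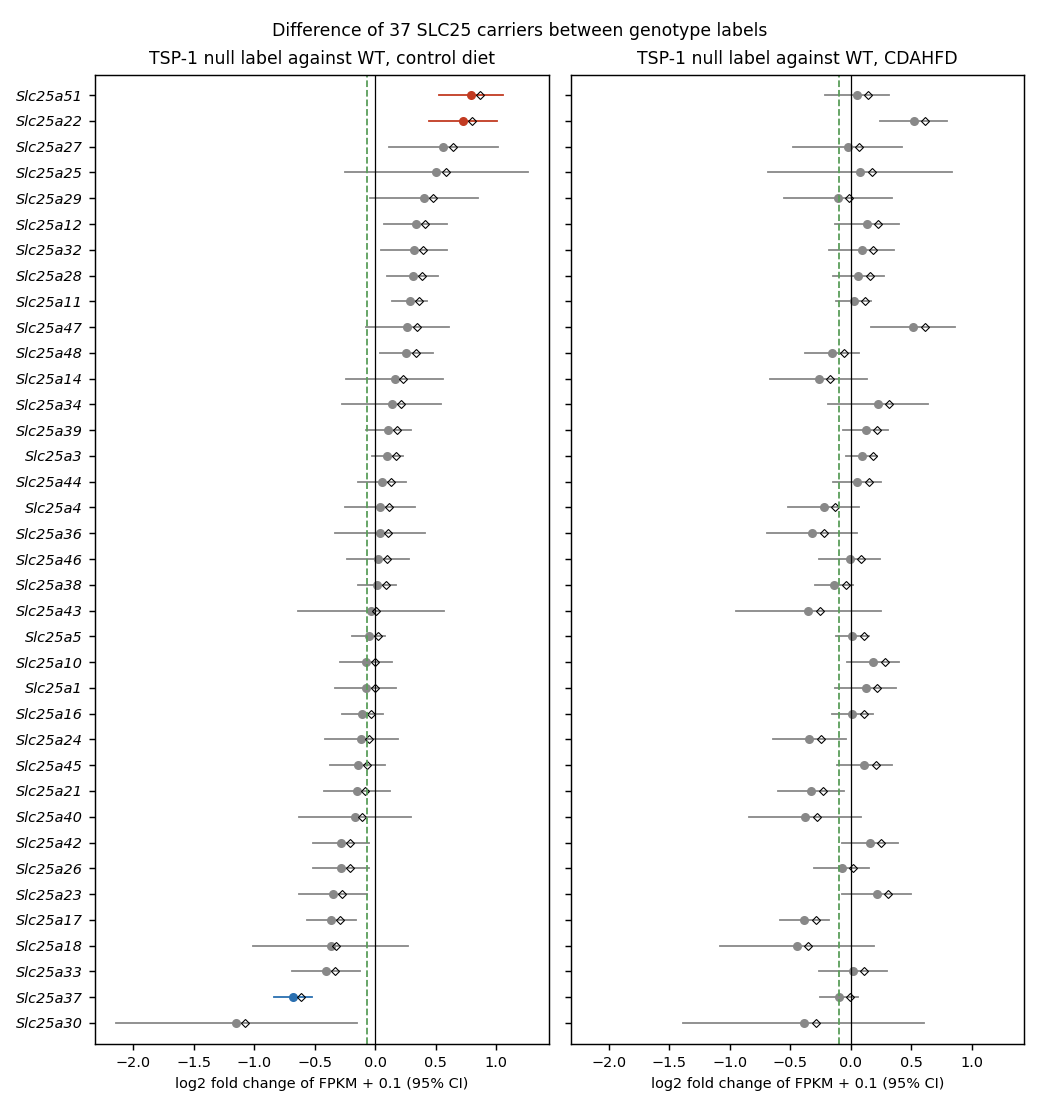
log2 fold change of FPKM + 0.1 with its 95% confidence interval (x axis) for 37 of the 38 tested carriers (y axis), livers labelled TSP-1 null against WT on the control diet (left) and on CDAHFD (right), n = 5 per group. Red and blue mark carriers called higher and lower, grey those not called, open diamonds the value after median-of-ratios scaling and the green dashed line the median of all genes. Slc25a51, Slc25a22 and Slc25a37 are the 3 coloured points, all on the control diet.

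With the values given above, Slc25a51 ranged from 10.9 to 17.8 FPKM in WT and from 19.5 to 26.9 FPKM in null livers on the control diet, a log2FC of 0.79 ± 0.13 (SE, FDR 6.19e-04). On CDAHFD the genotypes overlapped at 9.03 to 12.6 FPKM (log2FC 0.05 ± 0.13, SE, FDR 0.872). The interaction, which subtracts this genotype log2FC on the control diet from that on CDAHFD, was -0.74 ± 0.18 (SE, FDR 0.0516), just outside the FDR threshold. The glutamate carrier Slc25a22 was at 58.3 to 85.6 FPKM in WT and 99.8 to 143 FPKM in null livers on the control diet (log2FC 0.73 ± 0.13, SE, FDR 0.00185). On CDAHFD it was at 48.7 to 74.6 and 77.6 to 99.3 FPKM, again without overlap, with log2FC 0.52 ± 0.13 (SE, FDR 0.0646). That value was 0.62 and called after median-of-ratios scaling. The interaction of Slc25a22 was -0.21 ± 0.19 (SE, FDR 0.659).

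Mitoferrin 1, Slc25a37, was at 3.99 to 5.51 FPKM in WT and 2.78 to 3.17 FPKM in null livers on the control diet, a log2FC of -0.68 ± 0.07 (SE, FDR 1.83e-05). On CDAHFD the genotypes overlapped between 7.30 and 8.82 FPKM (-0.10 ± 0.07, SE, FDR 0.509). It was the only carrier of 38 with a called interaction (0.58 ± 0.11, SE, FDR 0.0146), against 0.647% of all genes, and with quantile normalization none was called (0.750%). That value lies at the edge of the fold threshold, and leaving out 1 library at a time gave 0.54 to 0.65, with the call lost for 10 of the 20 libraries (HFKO 1, 4 and 5, HFWT 2 and 3, NDKO 1 and 5, and NDWT 2, 3 and 5). The erythroid marker Hbb-bs was at 48.2 to 70.6 FPKM in WT and 48.6 to 147 FPKM in null livers on the control diet, and none of the 3 erythroid markers tested was called between the genotypes. Of 10 tested genes of heme and iron-sulfur synthesis none was called between genotypes on either diet. The leading member Slc25a47 was at 279 to 382 FPKM in WT and 425 to 560.3 FPKM in null livers on CDAHFD, without overlap, and its log2FC of 0.52 ± 0.17 (SE, FDR 0.124) was not called, while with quantile normalization it was 0.60 and called (FDR 0.0495). Slc25a17 was separate in the other direction on CDAHFD, at 22.4 to 29.2 FPKM in WT and 17.7 to 21.3 FPKM in null livers, with log2FC -0.39 ± 0.10 (SE, FDR 0.0599). Slc25a11 on the control diet was at 29.3 to 32.9 FPKM in WT and 33.3 to 40.8 FPKM in null livers without overlap, and its log2FC of 0.28 ± 0.07 (SE, FDR 0.0107) was under the fold threshold.

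**Figure D4:**
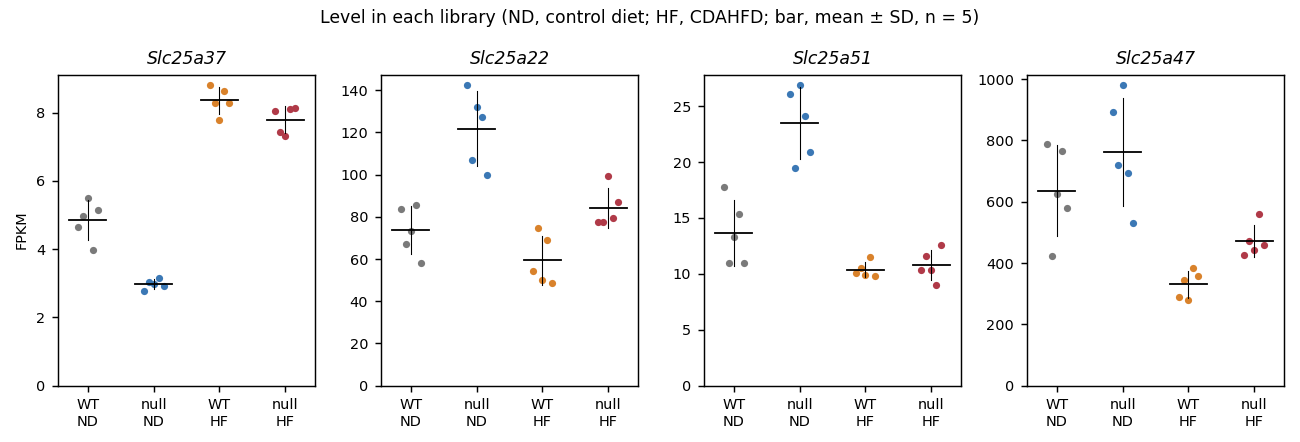
FPKM (y axis, from 0) of Slc25a37, Slc25a22, Slc25a51 and Slc25a47 in each library by group (x axis), 1 point per liver, with horizontal bars at the mean and vertical lines of ± SD, n = 5. On the control diet Slc25a37 of the null-labelled livers sits below WT, and Slc25a22 and Slc25a51 sit above it. On CDAHFD Slc25a37 and Slc25a51 overlap between genotypes.

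Ratios of related carriers within a library, taken on FPKM + 0.1, hardly depend on how libraries are scaled against each other. Of 11 pairs, 10 had both genes tested, and 17 of the 40 ratio tests passed an adjusted p of 0.05, namely 7 with diet in WT, 6 with diet in null livers and 2 for genotype on each diet. The 2 passing tests of the Slc25a24 ratio carry the limit given for that gene. On the control diet the log2 ratio of Slc25a37 to Slc25a28 differed by -0.99 between null and WT livers (exact permutation p = 0.00794, adjusted 0.0227). The ratio of Slc25a18 to Slc25a22 differed by -1.10 (exact permutation p = 0.0159, adjusted 0.0373), and in null livers it was higher by 1.12 on CDAHFD than on the control diet (exact permutation p = 0.0159, adjusted 0.0373), with Slc25a18 near its detection limit. On CDAHFD the ratio of Slc25a33 to Slc25a36 was higher by 0.34 in null livers (exact permutation p = 0.00794) and that of Slc25a39 to Slc25a40 by 0.50 (exact permutation p = 0.0159). Leaving out HFWT 2, 3 or 5 ended the call of the former (0.25 to 0.38 over the omissions), and leaving out HFKO 2, 3, 4 or 5 that of the latter (0.35 to 0.60). The Slc25a18 ratios lost their calls without any of 6 libraries (NDKO 3 or 4 for both, HFKO 1, 2, 3 or 5 for diet and NDWT 2, 3, 4 or 5 for genotype), and the Slc25a30 to Slc25a14 ratio in WT without HFWT 3 (-2.14).

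**Figure D5:**
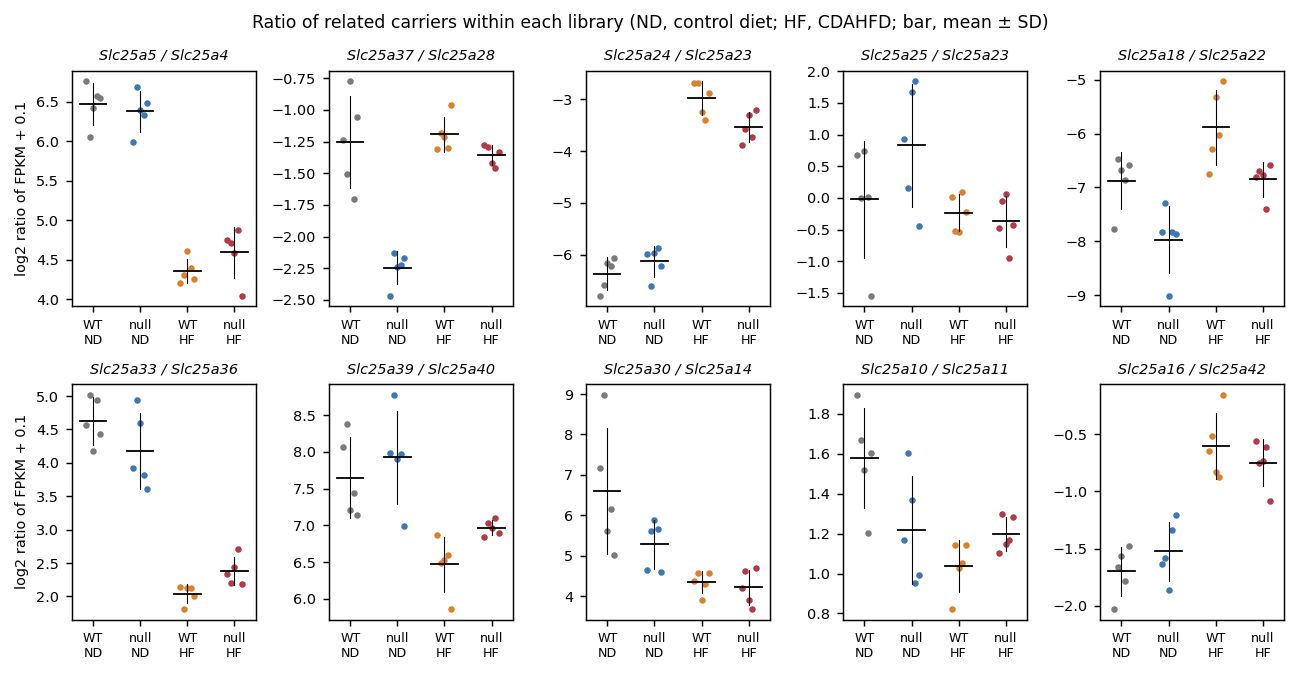
log2 ratio of FPKM + 0.1 (y axis) of 10 pairs of related carriers in each library by group (x axis), with horizontal bars at the mean and vertical lines of ± SD, n = 5. Slc25a5/Slc25a4, Slc25a24/Slc25a23, Slc25a33/Slc25a36 and Slc25a16/Slc25a42 separate the diets in both genotypes, and Slc25a37/Slc25a28 of the null-labelled livers on the control diet sits below the other 3 groups.

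Carriers reach the inner membrane through the TOM pore, small TIM chaperones and the TIM22 insertase. Of 12 tested genes of this route 2 were higher and 1 lower with diet in WT, and 1 was higher and 1 lower in null livers. After median-of-ratios scaling none was higher and 3 were lower in each genotype. Timm9, a small chaperone, was lower in both, with log2FC -0.83 ± 0.11 (SE, FDR 1.08e-06) in WT and -0.90 ± 0.11 (SE, FDR 4.68e-07) in null livers, and none was called between genotypes. Of 16 tested genes for other gates of the mitochondrial membranes, 4 were higher with diet in WT and 3 in null livers, and after median-of-ratios scaling 2 were higher and 4 lower in each. Sfxn3, a sideroflexin, had log2FC 2.88 ± 0.16 (SE, FDR 1.11e-11) in WT and 2.59 ± 0.16 (SE, FDR 6.04e-11) in null livers, and Ucp2, an uncoupling protein outside the symbols counted here, had 2.51 ± 0.16 (SE, FDR 9.41e-11) and 2.42 ± 0.16 (SE, FDR 2.00e-10). Sfxn1, which carries serine, was the only gene of that list called between genotypes, with log2FC 0.62 ± 0.10 (SE, FDR 0.00286) on CDAHFD. There 0.496% of all genes were called in either direction.

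Of the carriers counted here, which leave out Slc25a13, the malate-aspartate shuttle works with Slc25a11 and Slc25a12. The glycerol phosphate shuttle passes electrons without a carrier of this family. Among the 6 enzymes of both shuttles, none was higher and 1 was lower with diet in each genotype. After median-of-ratios scaling 5 were lower with diet in WT and 4 in null livers. Between genotypes 1 was higher and 1 lower in null livers on the control diet, against 1.74% and 3.03% of all genes. The cytosolic aspartate aminotransferase Got1 was higher in null livers on the control diet (log2FC 2.01 ± 0.24, SE, FDR 3.89e-05) and lower with diet in null livers (-2.27 ± 0.24, SE, FDR 6.63e-08). Mitochondrial glycerol phosphate dehydrogenase Gpd2 was lower in null livers on the control diet, with log2FC -0.64 ± 0.16 (SE, FDR 0.0104), but at -0.57 after median-of-ratios scaling it was under the fold threshold. The cytosolic enzyme Gpd1 was at -0.52 ± 0.11 (SE, FDR 0.00352), also under that threshold. Gpd1 was lower with diet in WT (-1.20 ± 0.11, SE, FDR 5.94e-09). Got1 and Gpd1 had a called interaction, -1.77 ± 0.33 (SE, FDR 0.0183) for Got1 and 0.79 ± 0.15 (SE, FDR 0.0183) for Gpd1. Over all genes the interaction was called for 0.647%. Of 7 regulators of mitochondrial biogenesis 3 were higher with diet in WT and 1 in null livers on FPKM, whereas after median-of-ratios scaling none was higher and 2 were lower in WT and 4 in null livers. Ppargc1a, the coactivator PGC-1alpha, was higher in null livers on the control diet (log2FC 1.28 ± 0.24, SE, FDR 0.00219).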

How the data were processed

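Liver poly(A) RNA was sequenced as paired ends from a directional kit. Per the submitters' processing notes the authors aligned reads with STAR 2.5.2 and counted them with featureCounts of Subread 1.5.1, and they deposited 1 table of FPKM per gene and library. The strand setting of the counting is not given in the sources used here. For 100% of the values checked, the FPKM came back to whole fragments within the rounding of the FPKM at the third decimal, which gave 15641545 to 23276322 fragments per library, and 3 fragments on a gene of 1 kb equal 0.129 to 0.192 FPKM. Groups follow the labels, with 1 liver per library.

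Genes above 0.5 FPKM in at least 5 libraries (14524) were fitted together over all 20 libraries with limma 3.58.1 in R 4.3.3 on log2(FPKM + 0.1), with a mean-variance trend. A gene was called where its log2FC passed 0.58 in size and its FDR, by the Benjamini-Hochberg procedure, was below 0.05. Ratios of related carriers were compared by a two-sided exact permutation test, adjusted over 40 tests, and ratio differences are CDAHFD less control diet or null less WT. The fit was tested on simulated data. The carriers and the lists of partner and marker genes were chosen with earlier results of these data known. Values in every library are given for carriers called between genotypes or in the interaction, the 6 with the largest rise and the 6 with the largest fall by diet, the 5 most abundant and both genes of the 4 ratios that shifted most, and up to 3 genes are named per partner list. Alternatives were other pseudocounts, filters, scalings, models, a replicate block, the omission of each library and, chosen after seeing the data, the omission of 2 carriers that passed the filter only through CDAHFD. Replicate numbers did not pair the libraries. The values of 1 tested carrier are not reported here, though the counts include it.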

Additional observations from a re-analysis of the deposited data

Results flagged for a closer look

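Within each group of 5 livers, the gap of the highest or lowest value to the nearest other was compared with Dixon's limit of 0.71 of the group's range for the 38 tested carriers. Of these 152 groups, 7 held a value past that limit, where chance gives about 1 in 20. HFKO 4 was high for the citrate carrier Slc25a1 (113 FPKM, other livers of the group 70.8 to 81.4 FPKM) and for the phosphate carrier Slc25a3 (59.0 FPKM, others 49.4 to 51.9 FPKM). HFKO 5 was high for the ADP/ATP carrier Slc25a4 (13.8 FPKM, others 9.16 to 10.3 FPKM) and the pyrimidine nucleotide carrier Slc25a36 (2.18 FPKM, others 1.21 to 1.48 FPKM). HFWT 2 was high for Slc25a30 (40.1 FPKM, others 19.6 to 24.5 FPKM). On the control diet NDWT 4 was high for the oxoglutarate carrier Slc25a11 (32.9 FPKM, others 29.3 to 30.2 FPKM) and NDWT 5 for the choline carrier Slc25a48 (5.38 FPKM, others 3.75 to 4.21 FPKM).

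The effect of the genotype label was called as different between diets for mitoferrin 1, Slc25a37, whose interaction log2FC was 0.58 (limma FDR 0.0146). That value lies at the edge of the fold threshold. As given above, many single omissions of a library ended the call, and with quantile normalization it was 0.56 and not called. Its level in null livers relative to WT was lower on the control diet and not called on CDAHFD.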

How the results depend on the processing

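With no fold threshold, beside the shares of all genes given above, the carriers called with diet went from 17 to 27 in WT (12 lower) and from 13 to 27 in null livers (16 higher, 11 lower), and from 3 to 6 between genotypes on the control diet (13.1% of all genes). After median-of-ratios scaling 6 were higher and 13 lower in WT, 13 were lower in null livers, and 1 was called between genotypes on CDAHFD. With quantile normalization 5 were higher and 15 lower in WT, 3 higher and 12 lower in null livers, 2 called between genotypes on each diet and 0 for the interaction. The higher diet counts include Slc25a24 and, where called, Slc25a43, which passed the filter only through CDAHFD. Under that setting the diet values of Slc25a12 and Slc25a14 in WT were -0.0616 and -0.0807 (log2FC). A pseudocount of 1 gave 0 interactions and a filter of FPKM above 1 in at least 5 libraries gave 2. The median of all genes was 0.53 and 0.50 with diet on FPKM and 0.01 and 0.00 after median-of-ratios scaling. The cause of the other shifts was not tested.

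Leaving out 1 library at a time gave 14 to 18 calls with diet in WT (10 to 11 higher, 4 to 7 lower, with 4 without NDWT 2) and 12 to 16 in null livers (7 to 8 higher, 4 to 9 lower). It gave 3 to 5 between genotypes on the control diet (5 without NDWT 5), 0 to 1 on CDAHFD (1 without HFWT 2), 0 to 2 interactions and 15 to 21 ratio calls, against 17 with all libraries. Of 1084 single-carrier values under the alternatives, 1031 kept direction and call, 51 lost the call and 2 turned sign. They include the diet values of Slc25a24 and Slc25a43, which passed the filter only through CDAHFD. They also include omissions of libraries outside the groups compared, which could hardly change a call. Over the ratios 353 values kept the call and 21 lost it, with the same limits and the Slc25a24 to Slc25a23 ratio included.

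Replicate numbers did not pair the livers. Deviations of the 30 same-number pairs correlated at -0.133 to 0.0812, and 6 of 20 libraries correlated best with their own number. With the replicate block the counts were 17 and 13 with diet in WT and null livers, 3 and 0 between genotypes, and 1 interaction, as without it. Depth limits Slc25a43, with 0 to 32 fragments, and Slc25a18, with 4 to 33.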

Other observations

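The spread between livers of 1 group differed widely among carriers. The median coefficient of variation over the 38 tested carriers was 14.6% in both control diet groups, 12.7% in WT and 11.7% in null livers on CDAHFD. Slc25a30 had the widest spread of any tested carrier in WT livers on the control diet, at 102%, with a highest value 10.7 times the lowest. Slc25a43 (65.3%) and Slc25a25 (49.6%, highest value 5.06 times the lowest) were also wide in that group.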
